A study of Mus musculus with 6 samples.

Results

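Cytosolic ribosomal protein genes encode the protein part of the ribosomes that translate nuclear messages. They were taken as the protein-coding genes whose symbol is Rpl or Rps followed by a digit, or is Rplp0, Rplp1, Rplp2 or Rpsa. Symbols of S6 kinases, pseudogenes and Rps19bp1 were left out. The rule gave 85 of the 52636 genes in the tables, of which 52 belong to the large and 33 to the small ribosomal subunit, and it used no measured value. Of the 85, 8 are paralogs, further genes that encode a protein similar to that of another member. Testing required a mean level of 0.5 FPKM or more (fragments per kilobase of exon, scaled to library size), which 79 members reached, 46 of the large and all 33 of the small subunit. All 79 would also have passed on the mean of either group alone.

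Optic nerve RNA of mice was sequenced as ribosome-depleted total RNA, in 3 hND6 libraries and 3 mCherry libraries. The hND6 group is named after a human ND6 gene, here the T14484C mutant form, which encodes a complex I subunit and is normally carried by mitochondrial DNA. The mCherry group is named after a red fluorescent protein. The labels describe one treatment for all 6 samples, an injection into the eye of a lentivirus carrying the mutant human gene, so what the mCherry animals received is known only from the group name. Strain, age and the cells that the virus reached are not given in the sources used here. Whether replicate libraries are separate animals is not stated, so a p-value here reflects library-to-library spread, part of which may be technical.

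Each ribosome carries one copy of nearly every ribosomal protein, and the acidic stalk proteins are the exception with several copies. Cells therefore hold the messages of these genes at similar and usually high levels, and surplus protein that finds no ribosome is degraded. Most of these messages begin with a cytosine followed by an unbroken run of pyrimidines (the 5′ terminal oligopyrimidine tract, TOP), through which the growth-sensing kinase mTOR and the RNA-binding protein LARP1 govern their translation. In optic nerve, oligodendrocytes, astrocytes, microglia and vascular cells supply nearly all nuclear transcripts, since the cell bodies of the axons lie in the retina.

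The DNA around the transcription start was searched for runs of pyrimidines. A run counted anywhere in the 30 bases centred on the start, and no cytosine was required at the start itself. A run found this way is therefore not necessarily a TOP tract. RefSeq start windows (GRCm38.p6) were matched by symbol for 65 of the 85 members, giving 77 windows. The 30 bases centred on the start are given for 4 members with a long run, with the run of C and T in capitals.

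Rplp2: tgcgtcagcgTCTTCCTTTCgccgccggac
Rpl14: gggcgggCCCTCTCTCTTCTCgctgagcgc
Rpl28: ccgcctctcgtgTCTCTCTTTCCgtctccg
Rps18: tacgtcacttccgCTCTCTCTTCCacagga

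These windows lie at chr7:141447636-141447665 (plus strand) for Rplp2, at chr9:120571502-120571531 (plus strand) for Rpl14, at chr7:4792950-4792979 (plus strand) for Rpl28 and at chr17:33955651-33955680 (minus strand) for Rps18. A run of at least 8 pyrimidines was present in 28 of the 77 member windows (36.4%), against 12% of all 32851 windows. The hexamer CTTTCC, read in the direction of the transcript, stood in 14.3% of member windows and in 1.42% of all windows. Over the longer window from 250 bases before to 50 bases after the start, CCGGAAG, the core bound by ETS-family factors, was found on either strand in 35.1% of member windows and 8.86% of all. AAGATGGC, the core of the YY1 motif, was found on either strand in 10.4% of member windows and 2.75% of all. TATAAA, read in the direction of the transcript, was found in 7.79% of member windows and 8.32% of all. The 26 tested members with a pyrimidine run of at least 8 had a median log2 fold change between hND6 and mCherry of 0.55, and the 33 whose windows had none had 0.54. Because members without such a run can still have a TOP tract, these medians do not compare messages with and without the tract.

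Reads assigned to genes ran from 20253637 to 34057682 in hND6 libraries and from 25718356 to 34758873 in mCherry libraries. The tissue label was checked on marker genes: 12 oligodendrocyte genes summed to 7308 to 8518 FPKM in hND6 and 5155 to 7692 in mCherry, with the lowest sum in mCherry 3, and 8 astrocyte genes summed to 2194 to 2585 FPKM in hND6 and 1595 to 2098 in mCherry. The 12 markers of forebrain neurons summed to 28.6 to 199.8 FPKM in hND6 and 23.1 to 632 FPKM in mCherry, with the highest sums in mCherry 3 and hND6 1. Along the leading principal component, with 46.9% of the variance, mCherry 3 lay at 64.97 and hND6 1 at 23.3, with the other 4 libraries between -34.4 and -17.0, so mCherry 3 stood apart. The 10 photoreceptor markers reached 226 FPKM in hND6 2 and 12.8 or less in each other library. Plasma cell markers (10 genes, of which Igkc is listed at 0) summed to 139 to 385 FPKM in hND6 and 6.81 to 17.6 in mCherry, and 8 erythroid genes summed to 1443 to 2684 FPKM in hND6 and 236 to 531 FPKM in mCherry. The part of these cell types in the values of the ribosomal protein genes was not tested.

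Ribosomal protein transcripts stood higher in the hND6 libraries as a block. The 85 members together summed to 8393, 8850 and 9277 FPKM in hND6 libraries 1 to 3, against 5799, 5249 and 6485 FPKM in mCherry libraries 1 to 3. They took 0.774% ± 0.0253 of the reads assigned to genes in hND6 and 0.520% ± 0.0615 in mCherry (SD, n = 3 each). All 79 tested members had a positive fitted log2 fold change, with a median of 0.58 and a middle range from the first to the third quartile of 0.52 to 0.64, while the median over all 16157 tested genes was -0.01. In 76 of the 79, every hND6 library lay above every mCherry library, where 12.6% of all tested genes were separated in that direction and 10.2% in the other. In bulk tissue, fewer cells of a type and less RNA per cell cannot be told apart.

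No single member passed the test. Fitted across all genes in limma on log2(FPKM + 0.5), with an intensity trend and Benjamini-Hochberg adjustment, 7 of 16157 genes (0.0433%) passed the adjusted p threshold of 0.05, and 0 of these were members. With limma's voom on the reads recovered from the FPKM, 0 members passed as well, and 75 were higher in hND6 at an unadjusted p under 0.05. Over all 16157 genes in that fit, 1460 were higher and 935 lower at that level. The lowest adjusted p among members was 0.143, shared by 20 of them. Before adjustment, 75 members had a p under 0.05 in the direction of higher hND6 values, where 9.11% of all tested genes did, and 0 had one in the other direction, where 6.05% of all genes did. The 4 tested members above an unadjusted 0.05 were Rpl13a, Rpl7l1, Rpl22l1 and Rpl29.

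One library decided whether members passed. Without mCherry 3, 131 genes passed in limma (0.811% of those tested), 116 of them higher in hND6 (0.718%), and 26 of the 79 members were among these, 13 of 46 in the large subunit and 13 of 33 in the small. The lowest adjusted p of a member was then 0.0448, and 77 members were separated upward, where 19.9% of all tested genes were. The members' median log2 fold change was 0.66 without mCherry 3, and with any other single library left out 0 members passed. Large-subunit members past the threshold in that fit included Rpl5, Rpl9, Rpl14, Rpl19, Rpl28, Rpl30, Rpl31, Rpl34, Rpl36a, Rpl38, Rpl39 and Rplp2. Those of the small subunit included Rps2, Rps13, Rps14, Rps15, Rps16, Rps18, Rps24, Rps25, Rps27, Rps27a and Rps29. With both mCherry 3 and hND6 1 left out, 1 gene passed (0.00619%) and 0 members did, with a lowest member adjusted p of 0.0987. In that fit 78 members were separated upward, where 25.9% of all tested genes were.

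**Figure D1:**
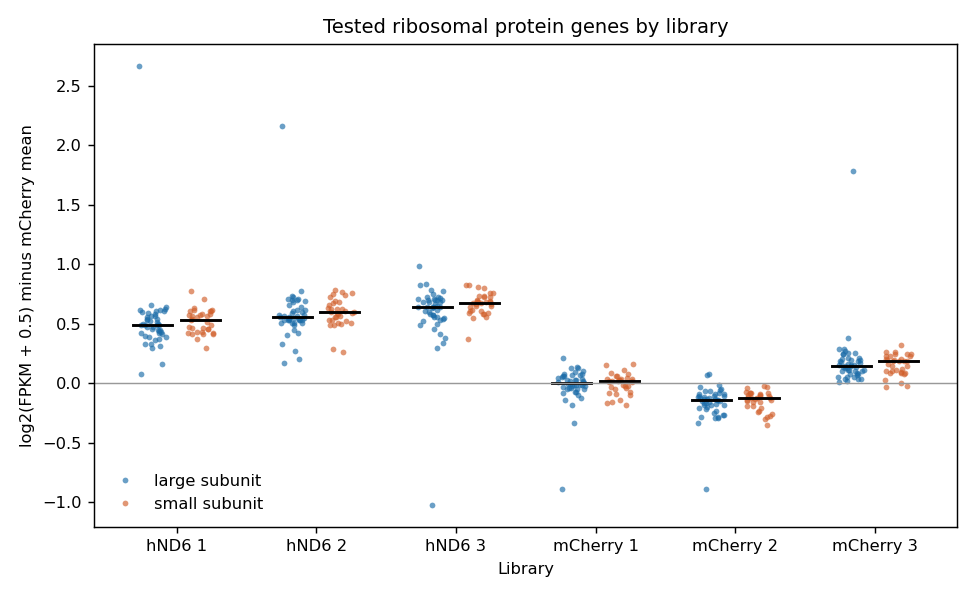
Each point is one of the 79 tested members in one library, as log2(FPKM + 0.5) minus that gene's mCherry mean, with large-subunit genes in blue, small-subunit genes in orange and black lines at the medians. Member medians lay at 0.49, 0.57 and 0.65 in hND6 libraries 1 to 3, against 0.01, -0.13 and 0.15 in mCherry libraries 1 to 3, and the genes of a library shifted together.

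The libraries kept nearly one order over the members. Of the hND6 libraries, hND6 3 held the highest value for 60 of 79 members and hND6 1 the lowest for 62. Of the mCherry libraries, mCherry 3 held the highest for 72 and mCherry 2 the lowest for 68. The plot of members by library shows this shift beside the gap between the groups.

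The stalk of the large subunit, which binds the elongation factors, is built from Rplp0 and the acidic proteins Rplp1 and Rplp2. Rplp1 (chromosome 9, 61913284 to 61914542, build GRCm38 as the tables list it) had the highest level of all members, with 424, 459 and 532 FPKM in hND6 libraries 1 to 3, against 256, 237 and 320 FPKM in mCherry libraries 1 to 3. Its log2 fold change of 0.80 ± 0.16 (± SE for every log2 fold change) was the second highest of the tested members, with an adjusted p of 0.155. Rplp2 (chromosome 7, 141447370 to 141451585), whose start window is given above, stood at 70.4, 71.9 and 77.4 FPKM in hND6, against 44.3, 42.7 and 51.2 FPKM in mCherry (log2 fold change 0.67 ± 0.09, adjusted p 0.143). For Rplp0 (chromosome 5, 115559467 to 115563727), which anchors the acidic proteins to the ribosome, the values were 115, 126 and 135 FPKM in hND6 and 89.2, 80.2 and 91.0 FPKM in mCherry (0.52 ± 0.10, adjusted p 0.155). The groups did not overlap in any of the 3 genes.

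Among the remaining proteins of the large subunit, Rpl14 (chromosome 9, 120571444 to 120574654) had the smallest p of all members. It stood at 95.7, 104 and 104 FPKM in hND6 libraries, against 62.5, 61.4 and 69.6 FPKM in mCherry libraries. Its log2 fold change was 0.65 ± 0.08 (adjusted p 0.143), and 0.70 ± 0.07 without mCherry 3 (adjusted p 0.0448).

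Rpl5 and Rpl11 carry the 5S ribosomal RNA into the large subunit and, when they are left free, bind Mdm2, the inhibitor of p53. Rpl5 (chromosome 5, 107900502 to 107909005) had 50.5, 51.8 and 54.3 FPKM in hND6, against 35.7, 35.5 and 37.6 FPKM in mCherry (log2 fold change 0.52 ± 0.07, adjusted p 0.143). Rpl11 (chromosome 4, 136049731 to 136053393) had 113, 111 and 118 FPKM in hND6, against 89.3, 72.6 and 90.0 FPKM in mCherry (0.44 ± 0.11, adjusted p 0.187). The groups did not overlap in either gene, and mCherry 2 gave the lowest value of both.

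Rpl9 (chromosome 5, 65388364 to 65391399), near the base of the stalk, was among the tightest members, with 45.8, 46.2 and 47.0 FPKM in hND6 and 32.5, 30.5 and 34.1 FPKM in mCherry (log2 fold change 0.51 ± 0.07, adjusted p 0.143). Rpl23a (chromosome 11, 78180935 to 78183584), which lies at the exit of the tunnel for the new protein chain, had 159, 166 and 182 FPKM in hND6 and 107, 89.7 and 110 FPKM in mCherry (0.73 ± 0.11, adjusted p 0.143). After Rplp1, the highest levels in the large subunit were those of Rpl41 and Rpl8. Rpl41 (chromosome 10, 128548114 to 128549305), the smallest ribosomal protein, had 250, 267 and 267 FPKM in hND6, against 166, 136 and 195 FPKM in mCherry (0.67 ± 0.14, adjusted p 0.177). Rpl8 (chromosome 15, 76904071 to 76906318), which sits close to the peptidyl transferase centre, had 188, 206 and 218 FPKM in hND6, against 130, 126 and 148 FPKM in mCherry (0.60 ± 0.11, adjusted p 0.150). The groups did not overlap in any of these 4 genes.

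At the lower end of the canonical large-subunit genes stood Rpl35a, Rpl10a and Rpl13a. Rpl35a (chromosome 16, 33056806 to 33060175), one of the genes mutated in Diamond-Blackfan anaemia in humans, had 50.6, 45.8 and 52.9 FPKM in hND6, against 38.6, 42.6 and 40.8 FPKM in mCherry (log2 fold change 0.29 ± 0.09, adjusted p 0.240). Rpl10a (chromosome 17, 28328471 to 28331032), a protein of the L1 stalk, had 48.3, 48.5 and 48.8 FPKM in hND6, against 39.9, 36.1 and 39.3 FPKM in mCherry (0.33 ± 0.07, adjusted p 0.172). Neither pair of groups overlapped. Rpl13a (chromosome 7, 45125558 to 45128761) had 2.85, 4.10 and 4.07 FPKM in hND6, against 3.18, 2.02 and 2.97 FPKM in mCherry, and these overlapped (0.38 ± 0.21, adjusted p 0.447). Its level was the lowest of the 79 tested members, and 88.6% of its span is covered on its own strand by the annotated gene Gm45713.

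Rpl29 (chromosome 9, 106429555 to 106431388), a small protein of the large subunit surface, had libraries far apart within both groups. It stood at 49.5, 34.8 and 3.38 FPKM in hND6 libraries 1 to 3, against 3.74, 3.75 and 26.6 FPKM in mCherry libraries 1 to 3. High and low libraries occurred in each group, so the fitted log2 fold change of 1.27, the highest of the members, came with an SE of 1.16 and an adjusted p of 0.644. The low values rested on 61 reads in hND6 3, 96 in mCherry 1 and 105 in mCherry 2, and the high ones on 1433 in hND6 1, 582 in hND6 2 and 579 in mCherry 3. The same 3 libraries were kept apart by 5 of the 27 other tested genes within 1 Mb. The share of all tested genes with this split was not counted, so the 5 are not read as an excess.

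**Figure D2:**
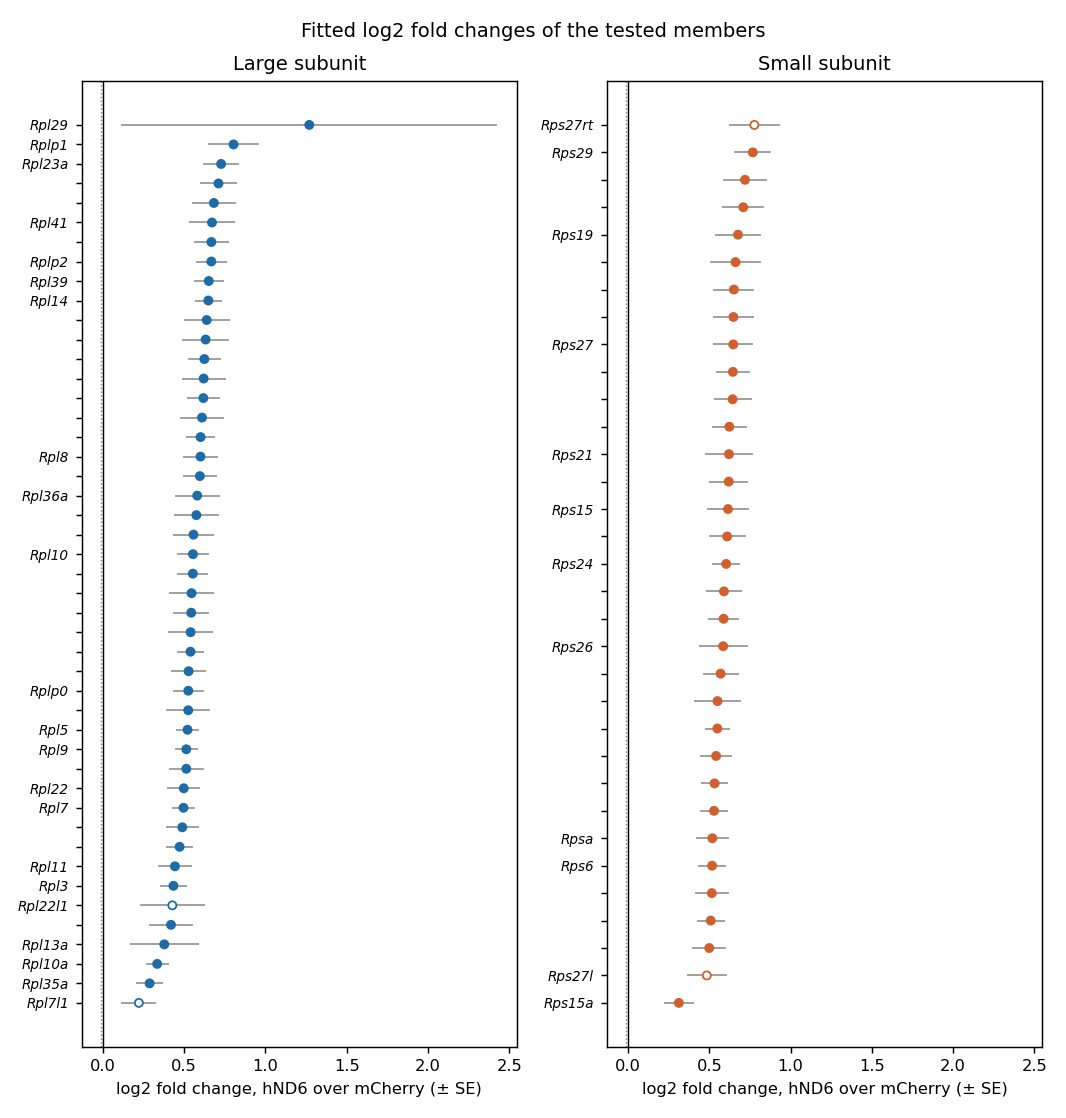
Fitted log2 fold changes of the 46 tested large-subunit and 33 tested small-subunit members, hND6 over mCherry, with bars for 1 SE, open symbols for paralogs and symbols of the members named by rule; the grey line marks the median of all tested genes. 72 members lie between 0.4 and 0.8, and Rpl29 stands apart with a wide bar.

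In the small subunit, Rps29, Rps21 and Rps15 had the highest levels. Rps29 (chromosome 12, 69157722 to 69159186), a zinc-binding protein of the subunit head, had 344, 362 and 368 FPKM in hND6, against 196, 198 and 239 FPKM in mCherry. Its log2 fold change of 0.77 ± 0.11 (adjusted p 0.143) was the highest of the canonical small-subunit genes, and it was 0.86 ± 0.09 without mCherry 3 (adjusted p 0.0448). Rps21 (chromosome 2, 180257377 to 180258445) had 264, 279 and 295 FPKM in hND6, against 195, 147 and 208 FPKM in mCherry (0.62 ± 0.15, adjusted p 0.193). Rps15 (chromosome 10, 80292645 to 80294087), needed in human cells for nuclear export of small-subunit precursors, had 236, 228 and 248 FPKM in hND6, against 145, 139 and 184 FPKM in mCherry (0.61 ± 0.13, adjusted p 0.168). All 31 canonical small-subunit genes were separated with hND6 higher, where 12.6% of all tested genes were.

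Rps24 (chromosome 14, 24490718 to 24496959), Rps19 and Rps26 are, in humans, among the genes mutated in Diamond-Blackfan anaemia. Rps24 had 121, 123 and 128 FPKM in hND6, against 80.1, 75.8 and 88.1 FPKM in mCherry (log2 fold change 0.60 ± 0.09, adjusted p 0.143). Rps19 (chromosome 7, 24884636 to 24889802) had 56.2, 57.6 and 66.5 FPKM in hND6, against 39.6, 30.8 and 42.6 FPKM in mCherry (0.68 ± 0.14, adjusted p 0.164). Rps26 (chromosome 10, 128624537 to 128626747), which contacts messenger RNA at the exit channel, had 82.9, 99.3 and 96.0 FPKM in hND6, against 63.2, 50.5 and 72.9 FPKM in mCherry (0.59 ± 0.15, adjusted p 0.199). In each of the 3, mCherry 2 gave the lowest value.

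Rps6 (chromosome 4, 86854660 to 86857412), the protein that S6 kinase phosphorylates, had 98.1, 104 and 112 FPKM in hND6, against 73.7, 68.5 and 76.7 FPKM in mCherry (log2 fold change 0.52 ± 0.09, adjusted p 0.148). Rpsa (chromosome 9, 120127689 to 120132369), also known as the laminin receptor, had 96.9, 102 and 114 FPKM in hND6, against 74.5, 65.9 and 77.9 FPKM in mCherry (0.52 ± 0.10, adjusted p 0.155). Rps15a (chromosome 7, 118104372 to 118116188) has the longest span of any member, 11817 bp, and the smallest fold change of the small subunit. It had 13.6, 13.3 and 14.4 FPKM in hND6, against 11.2, 10.03 and 11.8 FPKM in mCherry (0.31 ± 0.09, adjusted p 0.236). In all 3 genes the hND6 libraries lay above the mCherry libraries.

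Both subunits differed between the groups by nearly the same amount. Large-subunit genes summed to 4436, 4685 and 4889 FPKM in hND6, against 3104, 2762 and 3433 FPKM in mCherry. Small-subunit genes summed to 3956, 4165 and 4388 FPKM in hND6, against 2695, 2487 and 3052 FPKM in mCherry. The ratio of the sums, large over small, was 1.12 ± 0.00552 in hND6 and 1.13 ± 0.0209 in mCherry (SD, n = 3 each), and the 2 groups overlapped. The median log2 fold change was 0.55 over the 46 large-subunit genes and 0.60 over the 33 small-subunit genes, a difference of -0.05. That difference was between -0.06 and 0.01 over all settings tried, and its sign turned with quantile normalisation (0.01).

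**Figure D3:**
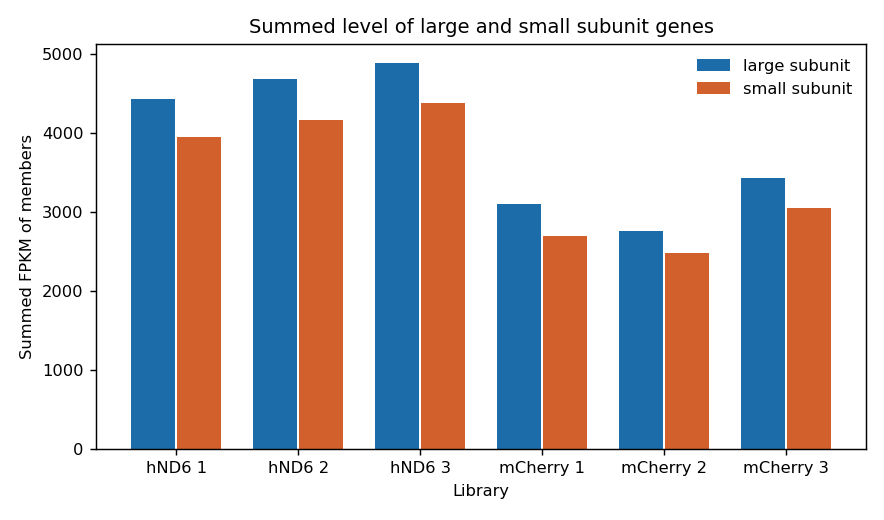
Bars give the summed FPKM of the 52 large-subunit (blue) and 33 small-subunit (orange) members in each library, from 0. Large-subunit sums run from 4436 to 4889 FPKM in hND6 and from 2762 to 3433 FPKM in mCherry, and the small-subunit sums follow them library by library.

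Of the 8 paralogs, 4 were at or near 0. Rpl3l, which replaces Rpl3 in heart and skeletal muscle, had 1, 1 and 0 reads in hND6 and 7, 9 and 2 reads in mCherry, or at most 0.0368 FPKM in hND6 and 0.197 FPKM in mCherry. Its parent Rpl3 (chromosome 15, 80077796 to 80083353) had 165, 179 and 167 FPKM in hND6, against 127, 120 and 131 FPKM in mCherry (log2 fold change 0.43 ± 0.08, adjusted p 0.155). Rpl10l and Rpl39l are known from male germ cells. Rpl10l is listed at 0 in all libraries, and Rpl39l had 2, 0 and 2 reads in hND6 and 0 reads in each mCherry library. Of their parents, Rpl10, whose joining completes the large subunit, averaged 166 ± 13.3 FPKM in hND6 libraries and 113 ± 5.99 FPKM in mCherry libraries (SD, n = 3 each; 0.55, adjusted p 0.150 in limma). Rpl39, a protein of the exit tunnel, averaged 101 ± 3.70 FPKM in hND6 libraries and 64.5 ± 6.32 FPKM in mCherry libraries (0.65, adjusted p 0.143).

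Rpl36al is listed at 0.114, 0 and 0.0367 FPKM in hND6 and at 0, 0 and 0.0305 FPKM in mCherry, while its parent Rpl36a averaged 57.5 ± 4.48 FPKM in hND6 libraries and 38.7 ± 7.10 FPKM in mCherry libraries (SD, n = 3 each; log2 fold change 0.58, adjusted p 0.191). Same-strand overlap touches this value, since 92.5% of the Rpl36al span lies within another annotated gene. The same holds for both canonical members that could not be tested, Rpl13 (100% of its span, within Gm20388) and Rpl24 (98.7%, within Gm28037), each listed at 0 in all 6 libraries. Such a 0 is a listed value and not read as absence of the transcript. The 58 small nucleolar RNAs annotated within 30 members, also nested genes, are listed at 0 without exception.

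The paralogs with a measured level were Rpl7l1, Rpl22l1, Rps27l and Rps27rt. Each was set against its parent within a library, on log2((paralog + 0.5)/(parent + 0.5)), where 3 against 3 libraries cannot give an exact two-sided permutation p below 0.1. Rpl7l1 (chromosome 17, 46773907 to 46782656), a protein of ribosome assembly that resembles Rpl7 in 54.5% of its coding sequence, had 11.98, 12.4 and 13.2 FPKM in hND6, against 9.29, 11.3 and 11.5 FPKM in mCherry. Its fold change was the lowest of all tested members (0.22 ± 0.11, adjusted p 0.387). Rpl7 (chromosome 1, 16101295 to 16104662) had 127, 137 and 132 FPKM in hND6, against 92.4, 92.2 and 95.6 FPKM in mCherry (0.50 ± 0.07, adjusted p 0.143). Rpl7l1 thus stood at 9.44%, 9.01% and 9.99% of the Rpl7 level in hND6 and at 10.1%, 12.2% and 12.05% in mCherry, without overlap. The log2 ratio was -3.35 ± 0.07 in hND6 and -3.07 ± 0.15 in mCherry, a difference of -0.27 with an exact permutation p of 0.1, the smallest possible, and 0.4 after adjustment over 4 pairs.

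Rpl22l1 is cross-regulated with Rpl22 in mouse cells, where loss of Rpl22 raises it. Rpl22 (chromosome 4, 152325867 to 152334071) had 35.7, 41.8 and 43.3 FPKM in hND6, against 28.8, 26.1 and 30.05 FPKM in mCherry (log2 fold change 0.50 ± 0.10, adjusted p 0.163). Rpl22l1 (chromosome 3, 28805436 to 28807415) had 21.6, 20.2 and 26.5 FPKM in hND6, against 13.2, 16.1 and 22.0 FPKM in mCherry, and overlapped (0.43 ± 0.20, adjusted p 0.371). Its share of the Rpl22 level was 60.6%, 48.5% and 61.2% in hND6 and 45.8%, 61.7% and 73.1% in mCherry. The log2 ratios differed by -0.07 with an exact permutation p of 0.8, and the sign turned without hND6 2 (0.04) and without mCherry 3 (0.08).

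Rps27 and its paralogs show how close 2 members can be. The coding sequence of Rps27rt (255 bases in a single exon) is identical to that of Rps27, and that of Rps27l is 76.1% identical. At the start sites, Rps27 and Rps27rt share 14 bases. The windows below lie at chr3:90213634-90213663 (minus strand) for Rps27, at chr9:114982725-114982754 (minus strand) for Rps27rt and at chr9:66946071-66946100 (plus strand) for Rps27l (RefSeq, GRCm38.p6). Capitals mark runs of at least 8 pyrimidines.

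Rps27: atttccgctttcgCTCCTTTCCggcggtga
Rps27rt: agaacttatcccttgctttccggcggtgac
Rps27l: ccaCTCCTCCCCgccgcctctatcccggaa

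The stretch common to Rps27 and Rps27rt is ctttccggcggtga. Rps27 (chromosome 3, 90212667 to 90213647) had 164, 162 and 179 FPKM in hND6, against 96.0, 102 and 126 FPKM in mCherry (log2 fold change 0.65 ± 0.12, adjusted p 0.155). Rps27rt (chromosome 9, 114982366 to 114982739) had 19.4, 18.8 and 20.2 FPKM in hND6, against 12.4, 8.63 and 12.9 FPKM in mCherry (0.78 ± 0.16, adjusted p 0.161). Of its 50-base stretches, 91.1% also occur in Rps27, so its level and fold change are uncertain. The log2 ratio to Rps27 differed by 0.13 (exact permutation p 0.6, adjusted 0.8) and turned to -0.01 without mCherry 2.

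Rps27l (chromosome 9, 66946091 to 66949514), a p53 target in human cells, had 27.0, 21.5 and 26.1 FPKM in hND6, against 19.7, 15.8 and 17.3 FPKM in mCherry (log2 fold change 0.48 ± 0.12, adjusted p 0.199). Its log2 ratio to Rps27 was -2.74 ± 0.15 in hND6 and -2.58 ± 0.29 in mCherry (SD, n = 3 each), which overlapped. The difference of -0.16 had an exact permutation p of 0.6 and 0.8 after adjustment. Rps4l, a processed pseudogene in the tables and so no member, had 9.45, 9.60 and 10.97 FPKM in hND6, against 6.78, 6.17 and 4.82 FPKM in mCherry (0.72, adjusted p 0.158).

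**Figure D4:**
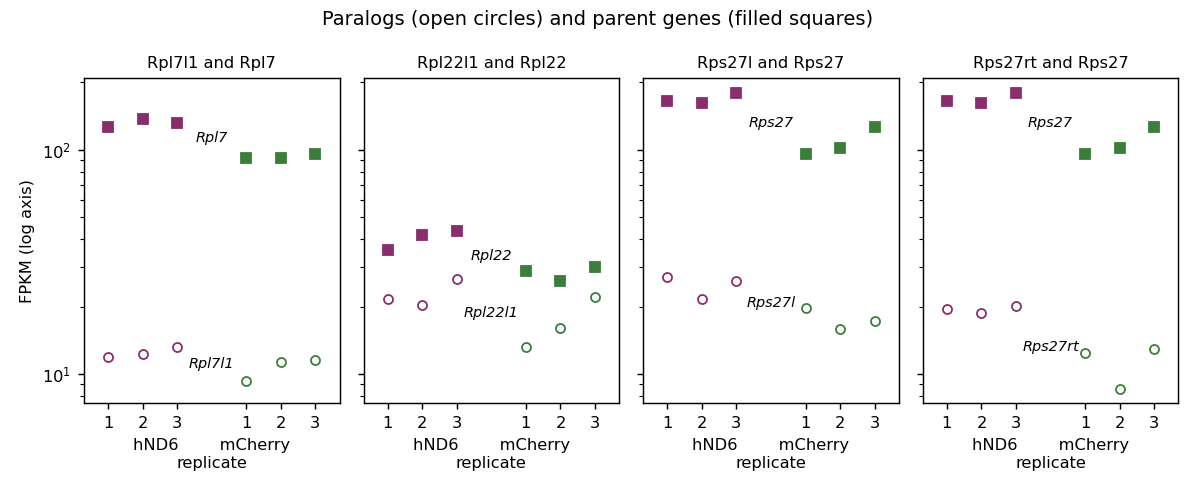
FPKM on a log axis for 4 paralogs (open circles) and their parent genes (filled squares) in hND6 replicates 1 to 3 (left) and mCherry replicates 1 to 3 (right). Rpl7l1 lies at 9.01% to 9.99% of Rpl7 in hND6 and 10.1% to 12.2% in mCherry, while the Rpl22l1 share of Rpl22 overlaps between the groups.

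Members differed little among themselves, and the differences went with the size of the gene. Over the 78 tested members without Rpl29, Spearman's rho of the log2 fold change was -0.47 with gene span, -0.34 with exon length and 0.25 with mean FPKM; these are descriptions over genes that share the same 6 libraries. Members span 374 to 11817 bp with a median of 3084 bp, while tested protein-coding genes had a median span of 24002 bp. Short genes in general stood higher in hND6. Among other protein-coding genes, the median log2 fold change was 0.33 for the 722 under 3000 bp and 0.16 for the 2602 of 3000 to 10000 bp. Members of the same spans stood at 0.62 (38 genes) and 0.54 (40 genes). With each library's trend of level with gene span removed, the members' median was 0.34, against -0.02 over all genes. Then 71 of 79 members were separated upward, where 8.84% of all tested genes were. The part of gene span in the result beyond this correction was not tested.

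**Figure D5:**
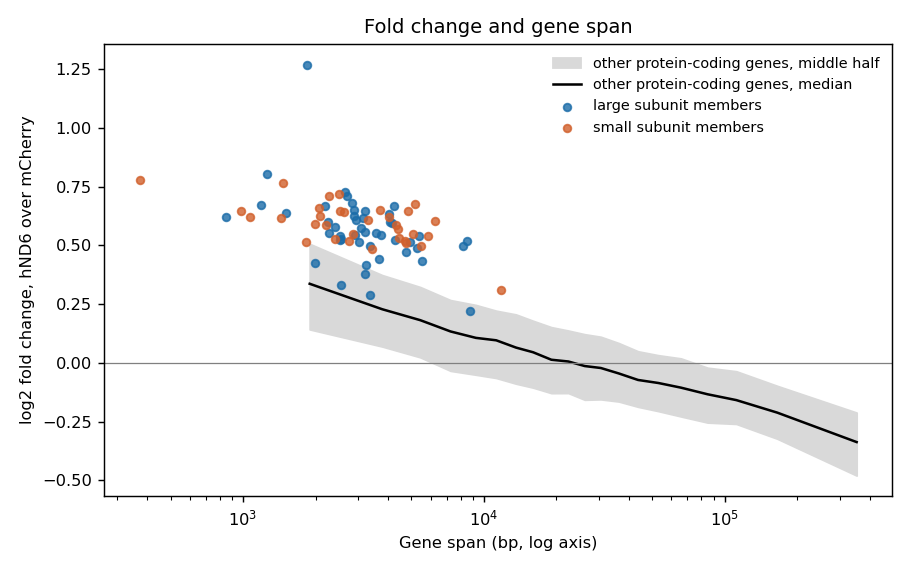
Fitted log2 fold change, hND6 over mCherry, against gene span on a log axis: points are the tested members, the black line the median of other tested protein-coding genes in 20 groups by span, and the grey band their middle range between quartiles. The line begins at a span of 1890.5 bp, and members from that span up lie above it, while shorter members have no line at their span. Both members and other genes lie lower where spans are longer.

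Scaling changed the size of the members' difference between the groups and not its side. Relative to the median of all tested genes, the members' median hardly changed with TPM scaling, at 0.59 on the deposited scale and 0.58 on the TPM scale. On the TPM scale, where each library sums to the same total, the median of all tested genes moved to -0.14 and that of the members to 0.44, with all 79 members above 0 and 72 separated upward. On that scale 5.37% of all genes were separated upward and 18.9% downward, against 12.6% and 10.2% on the deposited scale. Reads of members can be shared with copies elsewhere in the genome. A median of 47.9% of the 50-base stretches of the 79 tested members also occur in another annotated gene. Counted among these are genes that overlap a member at its own locus, such as Gm45713 for Rpl13a, and not only copies elsewhere. This share had a Spearman's rho of 0.06 with the log2 fold change over 78 members. Of 276 pseudogenes named after ribosomal proteins, 42 had a mean of at least 0.5 FPKM. The 29 tested members that host small nucleolar RNAs in their introns had a median log2 fold change of 0.55 and the 50 others 0.59.

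The genes that make, regulate and use ribosomes were read beside the members. The lists were not matched to the members in gene span, and fold changes were lower where spans were longer. Of the other constituents, Fau, which encodes S30 as a fusion protein, had 110, 109 and 129 FPKM in hND6, against 78.1, 70.4 and 83.4 FPKM in mCherry (log2 fold change 0.58, adjusted p 0.155). Rack1, the scaffold protein of the small subunit head, had 75.6, 80.0 and 87.0 FPKM in hND6, against 56.3, 52.5 and 60.3 FPKM in mCherry (0.52, adjusted p 0.150). Both constituents thus lay within the range of the members, without overlap of the groups.

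Translation factors were read next. Of 42 tested, 0 passed the threshold in limma, with 16 higher and 1 lower at an unadjusted p under 0.05 (all tested genes 9.11% and 6.05%). In 25 the groups were separated with hND6 higher and in 1 with hND6 lower, where 12.6% of all tested genes were separated upward and 10.2% downward. The median log2 fold change was 0.18. The smallest p belonged to Tpt1 and Eef1b2, both with TOP messages. Tpt1, the translationally controlled tumour protein, had 323, 339 and 357 FPKM in hND6, against 234, 212 and 214 FPKM in mCherry (0.62, adjusted p 0.143). Eef1b2, the exchange factor of elongation factor 1, had 46.0, 50.4 and 51.5 FPKM in hND6, against 36.1, 34.9 and 35.7 FPKM in mCherry (0.46, adjusted p 0.143).

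Genes of ribosome assembly were separated in equal numbers upward and downward. Of 89 tested biogenesis genes, which cover RNA polymerase I, rRNA modification and assembly factors, 14 were separated upward and 14 downward (all tested genes 12.6% and 10.2%). In limma 0 passed, with 8 higher and 8 lower at an unadjusted p under 0.05 (all tested genes 9.11% and 6.05%). The median log2 fold change was 0.02. The 2 with the smallest p were Snu13, a snoRNP core protein (30.4 ± 1.70 FPKM in hND6 libraries and 22.5 ± 1.397 FPKM in mCherry libraries, SD, n = 3 each; 0.43, adjusted p 0.155 in limma), and Imp3, a protein of the U3 particle (24.8 ± 4.45 FPKM in hND6 and 16.04 ± 1.51 FPKM in mCherry; 0.60, adjusted p 0.194). The difference between this list and the members was not tested. Of 10 carriers and chaperones of ribosomal proteins, 3 were separated upward and 1 downward (all tested genes 12.6% and 10.2%). In limma 0 passed, with 2 higher and 1 lower unadjusted (all tested genes 9.11% and 6.05%), and the median was 0.12. Tsr2, the carrier of Rps26, had 9.72 ± 0.332 FPKM in hND6 and 7.67 ± 0.550 in mCherry (0.32, adjusted p 0.219), and the importin Kpnb1 had 37.99 ± 0.898 FPKM in hND6 libraries and 31.9 ± 3.28 FPKM in mCherry libraries (0.25, adjusted p 0.288).

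On the mTOR axis, 9 of 32 tested genes were separated upward and 7 downward, where 12.6% and 10.2% of all tested genes were. In limma 0 passed, with 6 higher and 5 lower at an unadjusted p under 0.05 (all tested genes 9.11% and 6.05%). The shares of this list were thus above those of all tested genes in both directions, and the median log2 fold change was 0.03. Lamtor1, which anchors mTORC1 to lysosomes, had 62.8, 68.3 and 67.2 FPKM in hND6, against 53.02, 49.6 and 49.6 FPKM in mCherry (0.38, adjusted p 0.155). Rps6kb1, the S6 kinase that phosphorylates Rps6, had 10.6, 10.6 and 10.3 FPKM in hND6, against 13.6, 14.3 and 13.0 FPKM in mCherry (-0.36, adjusted p 0.177), and its groups did not overlap. Of 13 tested genes of ribosome stress, covering p53 targets and ribosome rescue, 0 were separated upward and 3 downward (all tested genes 12.6% upward and 10.2% downward). In limma 0 passed, with 0 higher and 1 lower unadjusted (all tested genes 9.11% and 6.05%), and the median was -0.07. These counts are on the deposited scale. The list was not counted on the TPM scale, where the shares over all tested genes were 5.37% upward and 18.9% downward. Eif2ak4, the kinase GCN2 that senses stalled ribosomes, had 9.37 ± 0.691 FPKM in hND6 and 11.1 ± 0.522 in mCherry (SD, n = 3 each; -0.24, adjusted p 0.305 in limma). Hbs1l, a ribosome rescue factor, had 23.9 ± 1.39 FPKM in hND6 libraries and 27.1 ± 1.25 FPKM in mCherry libraries (-0.18, adjusted p 0.345 in limma). Lamtor1 spans 6000 bp, while Rps6kb1, Eif2ak4 and Hbs1l, all lower in hND6, span 45935, 86388 and 72920 bp. The members have a median span of 3084 bp. The part of gene span in the values of these lists was not tested.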

How the data were processed

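The deposited values are FPKM per gene, fragments scaled by exon length and library size by the authors, per the labels. STAR, HTSeq, Trim Galore and CASAVA 1.4, with the builds mm10 and GRCm38, are listed without roles in the submitters' processing notes, and the counting settings are not given in the sources used here. The combined and single-library tables differed in 0 values, and 0 columns of per-sample values were left unused. Whole reads were recovered from FPKM and exon length (within 0.1 read for at least 99.99% of values above 0).

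The 16157 genes averaging 0.5 FPKM or more were fitted as log2(FPKM + 0.5) in R 4.3.3 with limma 3.58.1, hND6 minus mCherry, with Benjamini-Hochberg adjustment over all of them. Fold changes on this scale understate those of low genes. Paralog ratios had exact permutation tests in SciPy 1.17.1, and coding sequences (GENCODE, principal transcripts) were aligned with Biopython 1.88. The code was tested on simulated data. Members and lists were chosen with earlier results of these data known. Named are the 5 members of smallest p, the 5 of largest and 5 of smallest fold change, the 3 of highest level per subunit, the stalk, the paralogs and their parents, members under the filter, Rpl5, Rpl11, Rps6, Rpsa, Rps19, Rps26, and 2 genes of smallest p per list; members called without mCherry 3 are named besides. Some genes are not reported here. Alternatives were pseudocounts of 0.1 and 1, no filter or 1 FPKM, quantile normalisation, TPM and median-of-ratios scaling, no intensity trend, limma's voom on the recovered reads, the replicate number as a block, the gene span trend removed, and libraries left out.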

Additional observations from a re-analysis of the deposited data

How the results depend on the processing

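All 79 tested members kept a positive log2 fold change under every alternative that tested them, and between 71 (span trend removed, 8.84% of all tested genes) and 78 (mCherry 3 and hND6 1 left out, 25.9%) were separated upward. The members' median moved from 0.58 to 0.44 on the TPM scale, 0.45 with quantile normalisation, 0.34 with the gene span trend removed and 0.70 with mCherry 3 and hND6 1 left out, and lay between 0.51 and 0.66 with single libraries left out. Large minus small moved to 0.012 (quantile), -0.022 (span trend), -0.061 (both libraries left out), and lay between -0.050 and -0.0012 with single libraries left out. The number of all genes past the threshold was 7 in the reported fit, 1 without a filter, 0 with voom (1460 higher and 935 lower at an unadjusted p under 0.05), 1 with both libraries left out, and 0 (without mCherry 2) to 131 (without mCherry 3) with single libraries left out. For members these ran from 0 to 26, and the lowest member adjusted p over all settings ran from 0.0448 to 0.587. The cause of these shifts was not tested.

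Deviations from the group mean had correlations of -0.42, 0.36 and -0.20 between the libraries of replicate numbers 1, 2 and 3. The libraries that stood apart, mCherry 3 and hND6 1, carry different replicate numbers. These correlations therefore cannot decide whether libraries were handled in pairs. With the replicate block, 0 genes passed (1188 higher and 601 lower before adjustment) and 0 members.

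With single libraries left out, the log2 ratio difference ran from -0.36 to -0.23 for Rpl7l1, from -0.25 to 0.078 for Rpl22l1 (0.037 without hND6 2, 0.078 without mCherry 3), from -0.29 to -0.0017 for Rps27l and from -0.011 (without mCherry 2) to 0.28 for Rps27rt. Of 612 values of the 34 named members under 18 alternatives, 0 reversed and 10 passed the threshold. Of 234 values of 13 further genes, 0 did either.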

Other observations

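The libraries high for Rpl29 (hND6 1, hND6 2 and mCherry 3) were also kept apart from the other 3 by 5 of the 27 other tested genes within 1 Mb on chromosome 9, a split looked for after the Rpl29 values were seen. How many genes elsewhere show this split was not counted, so 5 of 27 is not read as an excess near Rpl29. Poc1a, a centriole gene, ends upstream of Rpl29 and stood at 10.8, 6.12 and 2.14 FPKM in hND6 libraries 1 to 3, against 2.31, 2.75 and 6.71 FPKM in mCherry libraries 1 to 3. Hemk1 had 8.30, 7.59 and 6.34 FPKM in hND6 and 5.95, 6.28 and 7.93 FPKM in mCherry, and Cacna2d2, a calcium channel subunit, had 5.60, 2.38 and 1.59 FPKM in hND6 and 2.08, 0.893 and 2.91 FPKM in mCherry. These 3 were higher in the libraries high for Rpl29. Lower in them were Iqcf3, with 0.0258, 2.82 and 6.75 FPKM in hND6 and 6.87, 7.28 and 2.48 FPKM in mCherry, and Rad54l2, with 7.33, 7.01 and 7.37 FPKM in hND6 and 8.27, 7.73 and 6.40 FPKM in mCherry. The labels used here name no strain, and the cause of this pattern was not tested.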
